A study of Mus musculus with 8 samples.

Results

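Ferritin and iron handling genes were followed in primary mouse astrocytes with reduced expression of GSTM1, a glutathione S-transferase. The set held 10 of the 54146 genes quantified, chosen by symbol: the ferritin chains Ftl1 and Fth1, the ferritin receptor gene Ncoa4, the uptake genes Tfrc, Trf, Slc11a2 and Slc39a14, the exporter gene Slc40a1, and the iron regulatory protein genes Aco1 and Ireb2. Ftl1 was picked because GSTM1 KD libraries held less of it than control KD libraries with and without stimulation, so its knockdown values are a description without a test. All 10 genes had a count in each of the 8 libraries, and 9 of them passed the filter on low counts. The 10th, Slc40a1, did not.

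The cells came from the cortices of newborn C57BL/6 mice and were infected with a lentivirus for either a Gstm1 shRNA (short hairpin RNA, GSTM1 KD) or a non-silencing one (control KD), selected with puromycin and depleted of CD11b-positive microglia. Cells of both kinds were left unstimulated (basal level) or stimulated for 6 h with 50 ng/ml TNF-α, which gave 4 groups of 2 biological replicates. All 4 groups therefore carried a virus and had passed the same selection. The totals of the expected counts ran from 17349676 to 34434633 per library. Gstm1 had 4851 to 9644 counts in the control KD libraries and 405 to 676 in the GSTM1 KD libraries.

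Ferritin is a hollow protein shell that stores iron. Its heavy chain oxidises the iron that enters and its light chain helps the mineral core to form. Transferrin-bound iron enters a cell through the transferrin receptor, ferrous iron through membrane transporters, and ferroportin is the exporter. The iron regulatory proteins bind iron-responsive elements (IREs) in messenger RNAs when iron is scarce, which blocks translation from a 5′ untranslated region (UTR) and slows decay through a 3′ UTR. Astrocytes line the brain's blood vessels and take part in moving iron from blood to neurons.

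The IREs are printed because they are the regulatory sequence that part of the set has in common. The search letters were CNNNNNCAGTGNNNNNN with both 5-base arms able to pair (G with U allowed), read on the transcript strand of annotated UTRs. The capitals mark the 6-base loop, and sequences run 5′ to 3′ in DNA letters with GRCm38 coordinates of the GENCODE M21 annotation.

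Ftl1, 5′ UTR, chr7:45459779-45459808, minus strand: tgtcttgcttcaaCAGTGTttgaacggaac

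Fth1, 5′ UTR, chr19:9982731-9982760, plus strand: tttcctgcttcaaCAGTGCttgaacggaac

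Slc40a1, 5′ UTR, chr1:45925465-45925494, minus strand: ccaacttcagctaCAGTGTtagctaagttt

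Tfrc, 3′ UTR, chr16:32631218-32631247, plus strand: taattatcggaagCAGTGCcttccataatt

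Tfrc, 3′ UTR, chr16:32631597-32631626, plus strand: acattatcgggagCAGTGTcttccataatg

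Tfrc, 3′ UTR, chr16:32631662-32631691, plus strand: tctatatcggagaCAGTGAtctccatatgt

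Tfrc, 3′ UTR, chr16:32631709-32631738, plus strand: taattatcgggaaCAGTGTttcccataatt

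A match was found in the 5′ UTR of 3 of the 10 genes and in the 3′ UTR of 1 of them. Over the 21901 protein-coding genes searched, 0.142% had a match in a 5′ UTR and 0.584% in a 3′ UTR. The letters were written to find IREs and the set was chosen for iron handling, so these shares are no test of enrichment. For the other 6 genes the result says only that these letters with these pairs are not in the annotated UTRs. Some transcripts of Slc11a2 are known to carry an IRE of another shape, and counts per gene do not separate them. A match describes the sequence and was not measured as a bound site.

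The 10 genes covered a wide range of levels. TPM (the share of transcripts, corrected for transcript length) was used to compare genes. Over the 8 libraries Fth1 averaged 4602 TPM (range 3988 to 5090), the 10th highest level of all genes, and Ftl1 averaged 1710 TPM (784.4 to 3005). Ncoa4, whose product carries ferritin to the lysosome for breakdown, followed at 149 TPM (129 to 178). A group of close levels came next, with Aco1 at 45.0 TPM (35.1 to 55.6), Slc39a14 at 42.2 (33.0 to 54.8), Slc11a2 at 29.9 (19.6 to 42.0), Ireb2 at 28.7 (26.5 to 32.2) and Tfrc at 19.1 (15.7 to 23.1). The ranges of neighbours within that group overlapped except those of Ireb2 and Tfrc. Trf averaged 3.35 TPM (2.18 to 5.32) and Slc40a1 0.153 TPM (0.030 to 0.570). Neither Ftl1 nor Ncoa4 overlapped its neighbours in this order.

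**Figure D1:**
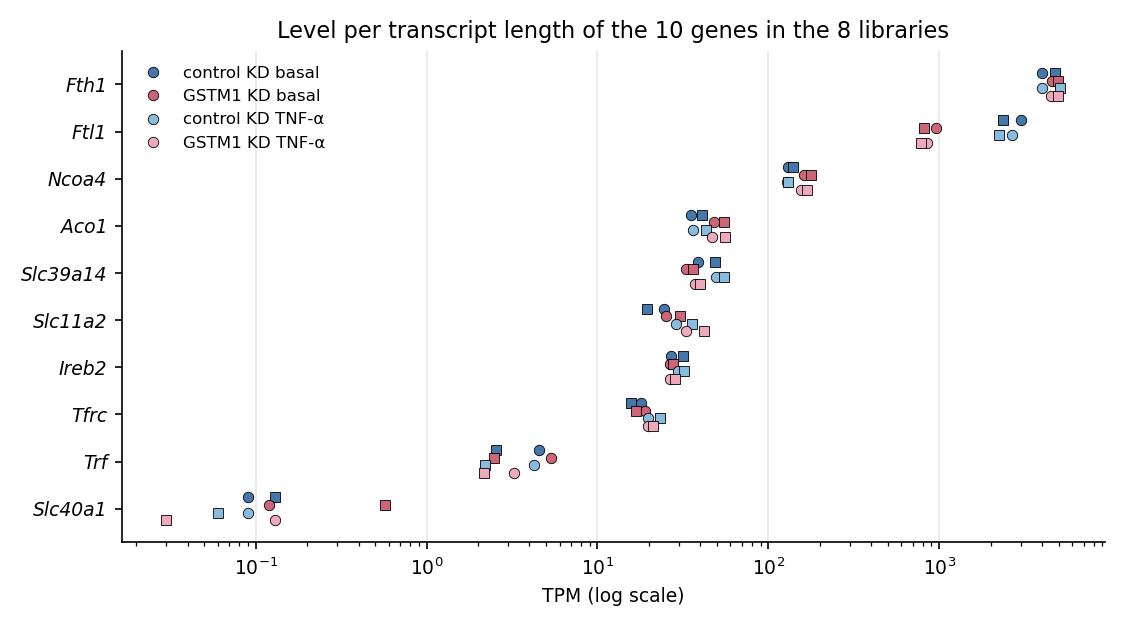
Levels of the 10 genes in TPM on a log axis, with circles for replicate 1 and squares for replicate 2 of each group. Fth1 and Ftl1 sit at 784.4 TPM or higher in every library and Slc40a1 sits at 0.570 TPM or lower.

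Ftl1 encodes the ferritin light chain and lies on chr7:45457944-45459884 (minus strand). Its level was 3005 and 2369 TPM in unstimulated control KD cells, and 962.5 and 818.3 TPM in unstimulated GSTM1 KD cells. After TNF-α stimulation it was 2663 and 2232 TPM for control KD, with 842.0 and 784.4 TPM for GSTM1 KD. Both GSTM1 KD libraries lay below both control KD libraries in each state, with no overlap, which is the pattern the gene was picked for. The mean was 2687 ± 450 TPM in control KD against 890 ± 102 TPM in GSTM1 KD without stimulation, and 2448 ± 304 against 813 ± 41 TPM with it (SD, n = 2). In CPM (counts scaled to a common total with TMM-adjusted library sizes, the scale of the fits) the log2 fold change was -1.67 (SE 0.18, 95% confidence interval -2.12 to -1.22) at the basal level, a 3.18-fold lower level. After TNF-α stimulation it was -1.65 (SE 0.14, -2.01 to -1.30), 3.15-fold lower. These were the 128th lowest fold change of 14899 genes and the 149th lowest of 14593. The intervals make no allowance for the choice of Ftl1 on these same contrasts, so they are no test.

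Fth1, on chr19:9980598-9985098 (plus strand), did not share the pattern. Its level was 4001 and 4727 TPM in unstimulated control KD cells, against 4555 and 4974 TPM in unstimulated GSTM1 KD cells. After stimulation it was 3988 and 5090 TPM for control KD, with 4523 and 4956 TPM for GSTM1 KD. The groups overlapped in both states and the largest spread was between replicates of control KD. The log2 fold change in CPM was 0.06 (SE 0.14, adjusted p = 0.816 in edgeR's quasi-likelihood test, 95% confidence interval -0.30 to 0.41) at the basal level. After stimulation it was 0.00083 (SE 0.16, edgeR adjusted p = 0.998, -0.40 to 0.40).

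The balance of the 2 chains therefore differed between the knockdowns. The ratio of Fth1 to Ftl1 in TPM was 1.33 and 2.00 in unstimulated control KD cells and 4.73 and 6.08 in the corresponding GSTM1 KD cells. After stimulation it was 1.498 and 2.28 for control KD, with 5.37 and 6.32 for GSTM1 KD. The ratio shows unequal change of the 2 messenger RNAs, and it is a description because Ftl1 was chosen on the same libraries. Protein was not measured.

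**Figure D2:**
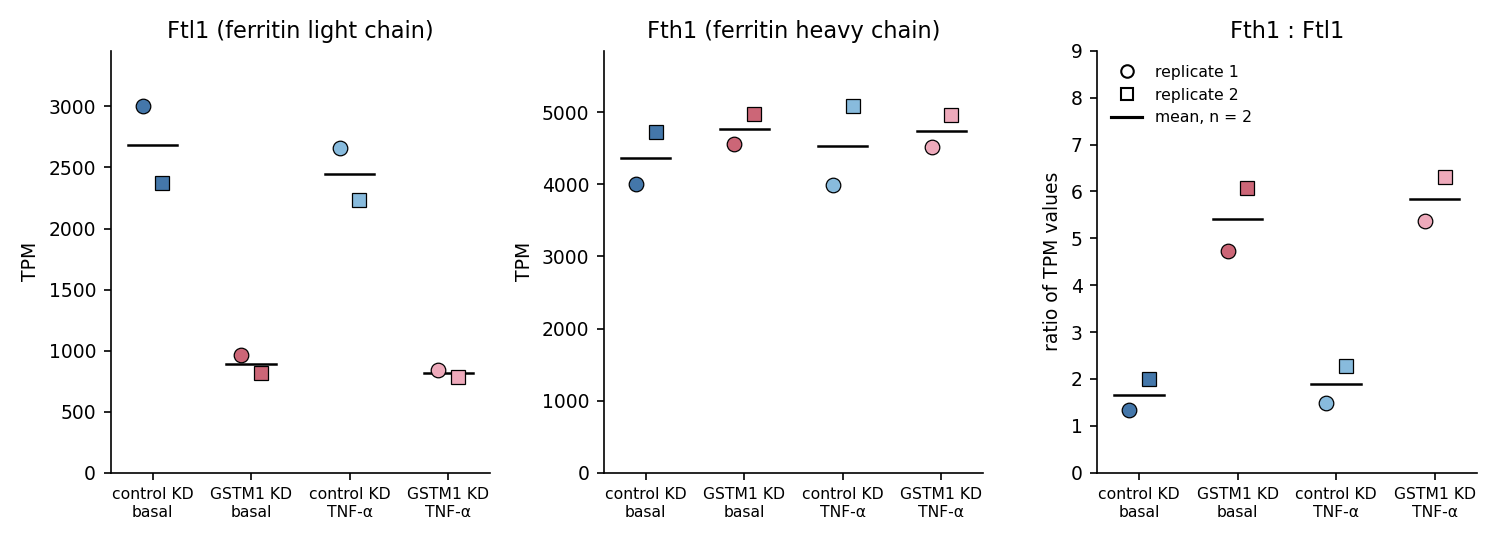
TPM of Ftl1 and Fth1 and the ratio of their TPM values in each library, with lines at the group means. Ftl1 is at 962.5 TPM or lower in the 4 GSTM1 KD libraries and at 2232 TPM or higher in the 4 control KD libraries, while the Fth1 groups overlap.

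Ferritin genes have many retrotransposed copies, so reads of Ftl1 could be divided among genes. Ftl1-ps1, a copy on chromosome 13 annotated as protein-coding, matched the Ftl1 coding sequence at 99.6% over 549 bases. Of the 100-base words of the transcript Ftl1-201, 78.6% also occurred in transcripts of other genes, most of them in Ftl1-ps1. The expected counts of Ftl1-ps1 were 486 and 249 in unstimulated control KD cells, against 97.0 and 60.5 in unstimulated GSTM1 KD cells. After stimulation they were 292 and 155 for control KD, with 107 and 54.5 for GSTM1 KD. These were 0.911% to 1.38% of the counts of Ftl1 in the same library. In CPM too, both GSTM1 KD libraries of each state were below both control KD libraries. Reads that match both genes are divided between them, so the counts of the copy are no separate observation of the pattern. With the copies summed into Ftl1, its log2 fold change was -1.67 at the basal level and -1.65 after stimulation.

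The other copies held few counts. Of 10 ferritin light chain copies or overlapping transcripts, 2 reached 10 counts in a library, Ftl1-ps1 and Gm10252, and 5 were at 0 in all 8 libraries. Gm10252 lies on the opposite strand over Ftl1 and had 6.65 to 29.9 counts. The strand setting of the counting is not given in the sources used here. Of 13 heavy chain relatives none reached 10 counts and 9 were at 0, including a second entry named Fth1 that the annotation lists as the pseudogene Fth-ps3. Of the words of Fth1, 0.573% occurred in other genes.

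**Figure D3:**
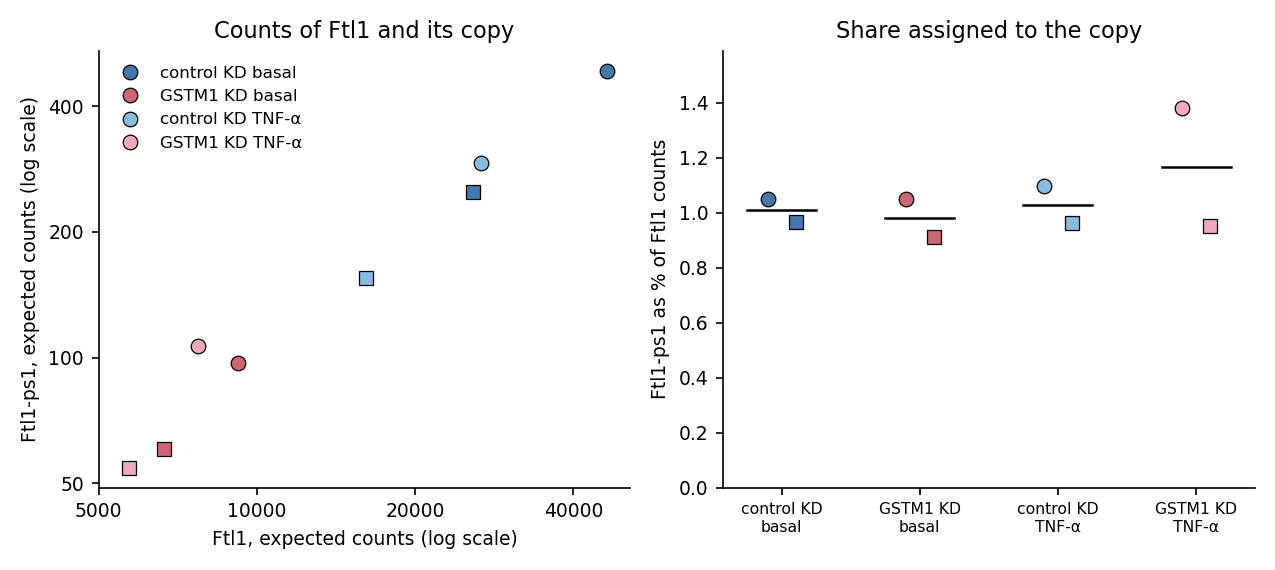
Expected counts of Ftl1 and its copy Ftl1-ps1 on log axes (left) and the copy as a percentage of the Ftl1 counts (right), with circles for replicate 1, squares for replicate 2 and lines at the means of 2 libraries. Counts of the copy are high and low in the same libraries as those of Ftl1, and its share stays between 0.911% and 1.38%.

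Microglia also express ferritin. Their summed marker level was lower in both GSTM1 KD libraries than in both control KD libraries at the basal level. After stimulation the groups overlapped, but within each replicate number the GSTM1 KD library was the lower one. The summed CPM of 10 microglial markers was 8.60 and 3.36 in unstimulated control KD cells, against 3.22 and 1.60 in unstimulated GSTM1 KD cells, and 9.48 and 2.53 against 4.48 and 2.24 after stimulation. Of these markers 5 had a count in every library and none was at 0 in all libraries. No marker was above 2.71 CPM (Csf1r), and Aif1 was at most 0.113 CPM. C1qa was at 2.21 and 0.587 CPM in unstimulated control KD cells, with 0.558 and 0.200 CPM in unstimulated GSTM1 KD cells, and Itgam at 1.73 and 0.313 against 0.129 and 0 CPM. These and Tyrobp were the 3 of 10 markers lower in both GSTM1 KD libraries at the basal level, P2ry12 was higher and the other 6 overlapped. Over all genes tested there, 31.2% were lower and 32.3% higher without overlap, so these counts are no result about the markers. After stimulation C1qa, Itgam and Tyrobp overlapped as well, though each was lower in GSTM1 KD within each replicate number. Ftl1 itself was at 1307 and 1008 CPM in unstimulated control KD cells, against 396 and 333 CPM in unstimulated GSTM1 KD cells. In all 8 libraries astrocyte markers were the most abundant of the lists, and all 10 were counted in every library.

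The summed CPM of the astrocyte markers ran from 3012 to 9053, with overlapping groups in both states and the higher sum in the library numbered 2 of each group. Within each replicate number this sum was higher in GSTM1 KD than in control KD, in both states. The members of the list differed in direction. Gfap, the astrocyte intermediate filament gene, was at 996 and 3080 CPM in unstimulated control KD cells, with 3121 and 5631 CPM in unstimulated GSTM1 KD cells. Aldoc, Aldh1l1, Slc1a2 and Gja1 were likewise higher in both GSTM1 KD libraries than in both control KD libraries of each state, and Sox9 and S100b were lower. Markers of the oligodendrocyte lineage summed to 467 to 742 CPM, nearly all of it Olig1, Olig2 and Cspg4, with Mog at or below 0.043 CPM. Both GSTM1 KD libraries of a state lay below both control KD libraries in this sum and for Olig1 and Olig2, but not for Cspg4. Fibroblast and pericyte markers summed to 180 to 445 CPM with overlapping groups. Within each replicate number their sum was lower in GSTM1 KD than in control KD, in both states. Among them Col1a2 was lower and Pdgfrb higher in both GSTM1 KD libraries of each state. Endothelial markers summed to 4.09 to 7.11 CPM with Cldn5 at 0, and the sum was lower in both GSTM1 KD libraries at the basal level and overlapped after stimulation. Of these, Kdr was higher in both GSTM1 KD libraries of each state and Cdh5 lower. Neuronal markers summed to 390 to 502 CPM, nearly all of it Map2, Stmn2 and Tubb3. Rbfox3 was at most 0.517 CPM and Snap25 at most 0.0862 CPM. Stmn2 overlapped in both states and Tubb3 after stimulation. The neuronal sum was higher in both GSTM1 KD libraries of each state, as were Map2 and Syt1. Choroid plexus markers summed to 1.77 to 4.46 CPM with Ttr at most 0.517, and this sum was also higher there, as was Folr1, while Otx2 was lower at the basal level. Over all genes tested, 63.5% did not overlap at the basal level and 66.6% after stimulation, so a single marker without overlap says little. The part of other cell types in the Ftl1 values was not tested, and in bulk RNA fewer cells of a type and less RNA per cell cannot be told apart.

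The genes whose pattern across the 8 libraries was most like that of Ftl1 were taken from 9966 other genes with a mean of at least 10 CPM. The 5 highest Pearson correlations of log2 CPM were those of Rragc (r = 0.998), Agpat1 (0.998), Cers2 (0.998), Paxip1 (0.997) and Fam220a (0.996). Rragc encodes a Rag GTPase of nutrient sensing, Agpat1 an enzyme of phospholipid synthesis and Cers2 a ceramide synthase. Rragc was at 135 and 122 CPM in unstimulated control KD cells, against 64.7 and 61.0 CPM in unstimulated GSTM1 KD cells, and Cers2 at 241 and 212 against 120 and 104 CPM. The correlations are a description, since the 8 points share their libraries and fall at 2 levels set by the knockdown.

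Among the other 8 genes tested at the basal level, none passed an adjusted p of 0.05 in edgeR's quasi-likelihood test, against 10.2% of all 14899 genes. At an unadjusted p under 0.05 there were 3 of the 8, Slc39a14, Aco1 and Slc11a2, against 31.6% of all genes. DESeq2 and limma also called none of the 8, beside 2492 and 1062 calls over all genes. With the replicate number as a block, edgeR called 2 of the 8, Slc39a14 (adjusted p = 0.00790) and Aco1 (adjusted p = 0.0130), beside 4712 calls over all genes. After TNF-α stimulation 1 of 8 passed, Slc39a14, against 16.2% of 14593 genes, and 2 of 8 had an unadjusted p under 0.05, against 36.2%. The median log2 fold change of the 8 was 0.05 at the basal level and -0.02 after stimulation, beside -0.0020 and -0.011 over all genes tested.

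**Figure D4:**
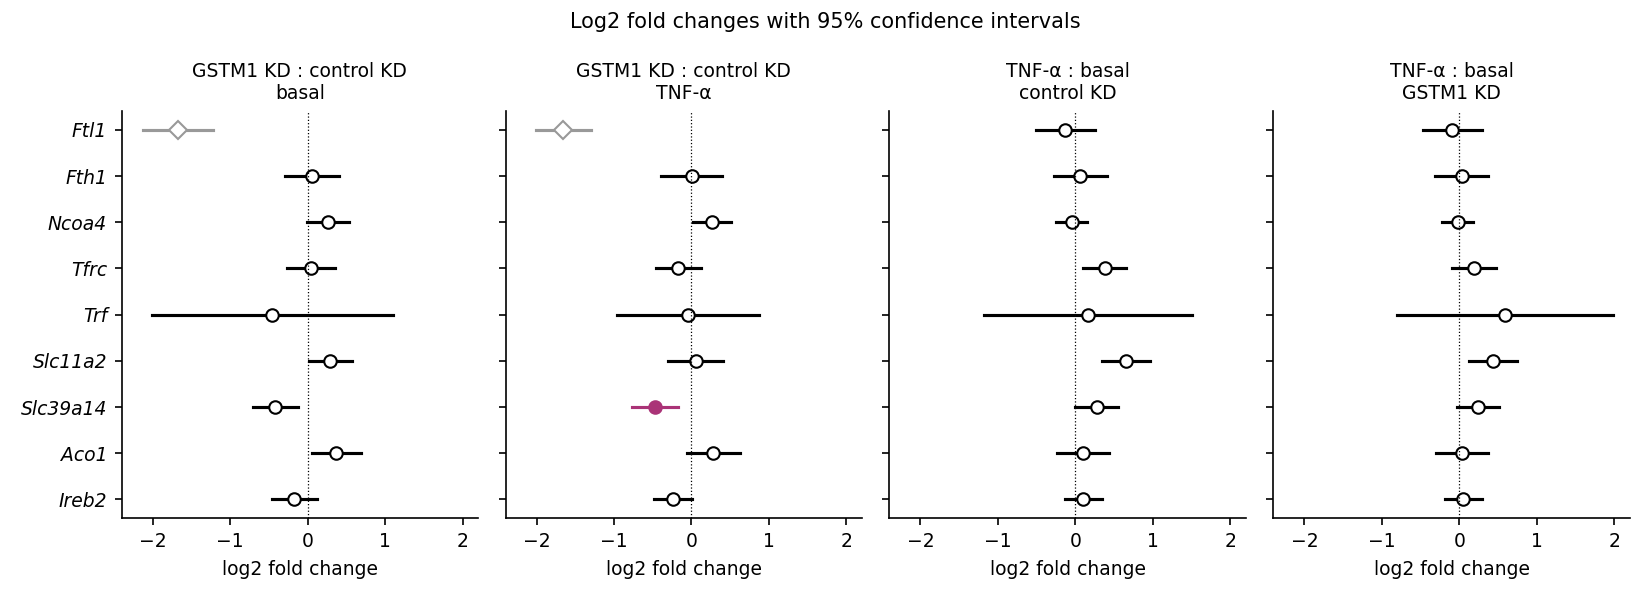
Log2 fold changes (points) with 95% confidence intervals (lines) of the 9 genes fitted, for GSTM1 KD against control KD in each state and for TNF-α against the basal level in each knockdown. The grey diamonds are Ftl1, which was chosen on these contrasts, and their intervals ignore that choice and are no test. The filled point is Slc39a14 after TNF-α stimulation, the only member past the threshold in the fits plotted.

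Slc39a14 encodes ZIP14, a membrane importer of ferrous iron, zinc and manganese (chr14:70303469-70351425, minus strand). At the basal level it was at 83.9 and 97.3 CPM for control KD, with 66.4 and 69.5 CPM for GSTM1 KD. After TNF-α stimulation it was at 99.98 and 119 CPM for control KD, with 83.0 and 77.5 CPM for GSTM1 KD. Both GSTM1 KD libraries lay below both control KD libraries in each state. The log2 fold change was -0.47 after stimulation (SE 0.12, edgeR adjusted p = 0.0497, 1.39-fold lower), so Slc39a14 narrowly passed as lower in GSTM1 KD there. At the basal level it was -0.42 (SE 0.12, edgeR adjusted p = 0.0764, and 0.00790 with the replicate block). The call after stimulation was at the threshold: the adjusted p ran from 0.00414 to 0.0701 over the other settings and was above 0.05 with DESeq2 size factors (0.0511) and with limma on TPM (0.0701). Without GSTM1 KD replicate 1 or 2 after stimulation it was 0.204 and 0.333, and the value was -0.51 and -0.42.

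Slc11a2 encodes DMT1, which carries ferrous iron across the plasma and endosomal membranes (chr15:100387898-100425072, minus strand). It was at 35.7 and 33.3 CPM in unstimulated control KD cells, against 42.8 and 41.6 CPM in unstimulated GSTM1 KD cells. Both GSTM1 KD libraries were higher, with a log2 fold change of 0.29 (SE 0.11, edgeR adjusted p = 0.144). After stimulation the libraries were at 47.6 and 60.7 CPM for control KD, with 53.7 and 60.4 CPM for GSTM1 KD. There the groups overlapped, with a value of 0.05 (SE 0.14, edgeR adjusted p = 0.823).

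Tfrc encodes the transferrin receptor and holds the 4 printed 3′ UTR elements (chr16:32608920-32632794, plus strand). At the basal level it was at 47.8 and 42.4 CPM for control KD, with 49.1 and 43.8 CPM for GSTM1 KD. After stimulation it was at 53.5 and 63.7 CPM for control KD, with 52.4 and 53.6 CPM for GSTM1 KD. The groups overlapped in both states. The log2 fold changes were 0.04 (SE 0.12, edgeR adjusted p = 0.843, 95% confidence interval -0.26 to 0.35) and -0.17 (SE 0.12, edgeR adjusted p = 0.339, -0.46 to 0.12). Without each library in turn, the value after stimulation ran from -0.29 to -0.038.

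**Figure D5:**
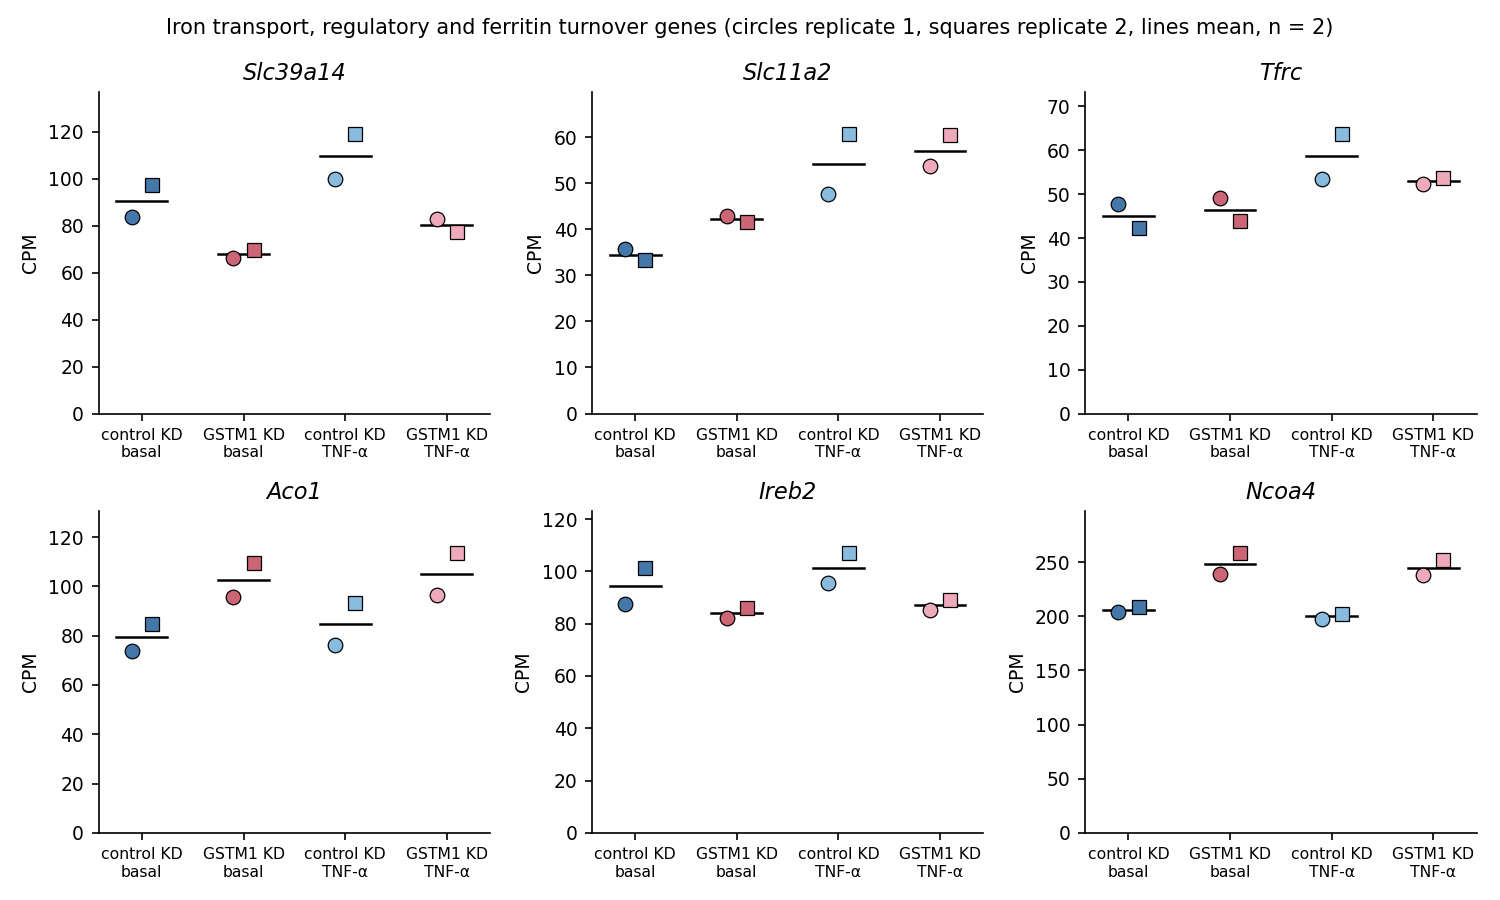
CPM in each library of the uptake genes Slc39a14, Slc11a2 and Tfrc, the iron regulatory protein genes Aco1 and Ireb2, and Ncoa4, with lines at the means of 2 libraries. Slc39a14 and Ireb2 are lower and Aco1 and Ncoa4 higher in both GSTM1 KD libraries of each state, and Slc39a14 after TNF-α stimulation passed the test without a block.

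The iron regulatory protein genes differed in direction. Of all genes tested, 63.5% at the basal level and 66.6% after stimulation did not overlap, so this is no result about the pair. Aco1 encodes IRP1, which is a cytosolic aconitase when it holds an iron-sulphur cluster (chr4:40143081-40198338, plus strand). It was at 73.8 and 84.9 CPM in unstimulated control KD cells, against 95.6 and 110 CPM in unstimulated GSTM1 KD cells, and at 76.3 and 93.4 against 96.4 and 113 CPM after stimulation. The GSTM1 KD libraries were the higher ones in both states, by log2 fold changes of 0.37 (SE 0.13, edgeR adjusted p = 0.114) and 0.28 (SE 0.14, edgeR adjusted p = 0.203). Without each library in turn, the value after stimulation ran from 0.15 to 0.44.

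Ireb2 encodes IRP2, which is degraded when iron is plentiful (chr9:54863789-54912530, plus strand). It was at 87.7 and 101 CPM in unstimulated control KD cells, against 82.1 and 86.1 CPM in unstimulated GSTM1 KD cells, and at 95.8 and 107 against 85.3 and 89.1 CPM after stimulation. Its GSTM1 KD libraries were the lower ones in both states, with values of -0.17 (SE 0.11, edgeR adjusted p = 0.359) and -0.24 (SE 0.099, edgeR adjusted p = 0.144). Without each library in turn, these values ran from -0.27 to -0.070 and from -0.32 to -0.16. Neither regulator passed the test without a block, and Aco1 passed at the basal level with the replicate block (edgeR adjusted p = 0.0130). In TPM, Aco1 was above Slc39a14 in each of the 4 GSTM1 KD libraries and below it in each of the 4 control KD libraries. That comparison was not planned and only restates the shifts of Aco1 and Slc39a14.

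Ncoa4 (chr14:32159865-32179855, plus strand) was at 204 and 209 CPM in unstimulated control KD cells, against 239 and 258 CPM in unstimulated GSTM1 KD cells. After stimulation it was at 197 and 203 CPM for control KD, with 238 and 252 CPM for GSTM1 KD. Its GSTM1 KD libraries were higher without overlap in both states, with log2 fold changes of 0.27 (SE 0.11, edgeR adjusted p = 0.159) and 0.27 (SE 0.097, edgeR adjusted p = 0.112). A processed copy, Gm6768, shares 39.8% of the 100-base words of Ncoa4 and held 0.135% to 1.07% of their summed counts.

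Counted by overlap, 5 of the 8 genes at the basal level and 4 of 8 after stimulation had GSTM1 KD and control KD libraries that did not overlap in CPM. At the basal level 3 were higher and 2 lower, and after stimulation 2 were higher and 2 lower. Over all genes tested the shares without overlap were 63.5% (32.3% higher, 31.2% lower) and 66.6% (34.7% higher, 31.9% lower), so with 2 libraries a group this is no result about the set.

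The 2 genes with the lowest levels gave little information. Trf encodes transferrin, the iron carrier of plasma and brain fluid (chr9:103204001-103230444, minus strand), and had 117 and 31.1 counts in unstimulated control KD cells, against 54.8 and 18.8 in unstimulated GSTM1 KD cells. After stimulation it had 68.9 and 35.1 for control KD, with 66.2 and 33.8 for GSTM1 KD. The replicates differed more than the groups, with log2 fold changes of -0.45 (SE 0.63, edgeR adjusted p = 0.654) and -0.05 (SE 0.37, edgeR adjusted p = 0.938). The gene Gm20425 on the same strand shares 77.3% of its 100-base words and took 22.7% to 70.3% of their summed counts, and the effective length of Trf ran from 679 to 1615 bases between libraries, so the level of Trf is uncertain. Summed with Gm20425, its log2 fold change was -0.90 (SE 0.31, edgeR adjusted p = 0.119) at the basal level and -0.33 (SE 0.36, edgeR adjusted p = 0.555) after stimulation.

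Slc40a1 encodes ferroportin (chr1:45908068-45926523, minus strand) and had 6 and 6 counts in unstimulated control KD cells, against 5 and 7 in unstimulated GSTM1 KD cells. After stimulation it had 4 and 2 for control KD, with 5 and 1 for GSTM1 KD. These counts are near the floor of 3 counts, which is 0.0848 to 0.181 CPM, and a difference was not detectable at this depth.

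The response to TNF-α stimulation was then compared within each knockdown, in a fit of all 8 libraries. None of 9 genes passed in control KD, against 2.63% of 15332 genes (2.1% higher, 0.528% lower), and none in GSTM1 KD, against 2.65% (2.35% higher, 0.294% lower). At an unadjusted p under 0.05 there were 3 in control KD (Slc11a2, Tfrc and Slc39a14) and 1 in GSTM1 KD (Slc11a2), against 12.5% and 10.9% of all genes. DESeq2 called 1 and 0, beside 742 and 630 over all genes, and limma none, beside 302 and 347. For Slc11a2 both stimulated libraries were above both basal libraries in each knockdown, with log2 changes of 0.65 (SE 0.13, edgeR adjusted p = 0.0540) in control KD and 0.43 (SE 0.13, edgeR adjusted p = 0.210) in GSTM1 KD. The adjusted p in control KD ran from 0.000512 to 0.305 over the other settings, and it was 0.00366 in DESeq2, 0.0220 with the replicate block and 0.0264 without control KD replicate 1 after stimulation.

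Stimulated libraries were also above basal libraries for Slc39a14 and Tfrc in each knockdown. The log2 changes were 0.27 (SE 0.12, edgeR adjusted p = 0.399) and 0.24 (SE 0.12, edgeR adjusted p = 0.573) for Slc39a14, and 0.38 (SE 0.12, edgeR adjusted p = 0.205) and 0.19 (SE 0.12, edgeR adjusted p = 0.741) for Tfrc. Ftl1 changed by -0.13 (SE 0.16, edgeR adjusted p = 0.915) in control KD and -0.09 (SE 0.16, edgeR adjusted p = 1.00) in GSTM1 KD, with overlapping libraries. Fth1, Ncoa4, Aco1 and Ireb2 had values from -0.04 to 0.10 in control KD and from -0.02 to 0.05 in GSTM1 KD. Trf had 0.16 (SE 0.57) and 0.59 (SE 0.59). Stimulated and basal libraries did not overlap for 4 of the 9 genes in control KD (3 higher, and Ncoa4 lower) and for 3 of the 9 in GSTM1 KD (all higher). Over all genes the shares were 34.5% (16.2% higher, 18.3% lower) and 44.5% (22.4% higher, 22.2% lower).

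The difference between the responses of GSTM1 KD and control KD (the interaction) passed for none of 8 genes in edgeR, none at an unadjusted p under 0.05, and none in DESeq2 or limma. Over all genes 0% passed in edgeR, 295 (1.92%) had an unadjusted p under 0.05 and DESeq2 called 27. The widest value among well counted genes was that of Slc11a2, -0.22 (SE 0.18, 95% confidence interval -0.65 to 0.22, edgeR adjusted p = 1). For Ftl1 the value was 0.04 (SE 0.23, -0.50 to 0.58), given without a test.

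The wider iron pathway was described with 6 lists that held 78 further genes, of which 76 were quantified and 66 tested. At the basal level 1 was higher and 2 were lower in GSTM1 KD, against 4.6% and 5.62% of all genes, with a median log2 fold change of -0.09 beside -0.0020 over all genes. After TNF-α stimulation 3 were higher and 4 lower, against 7.26% and 8.92%, with a median of -0.12 beside -0.011. With the replicate block 23 and 20 of the 66 passed, beside 4712 and 4302 of all genes. DESeq2 called 8 of 71 and 11 of 70, beside 2492 and 2824 of all genes. Genes past the threshold in the same direction in both states were Hmox1, Isca2 and Abcb8.

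Hmox1 encodes heme oxygenase 1, which releases iron from heme. It was at 378 and 233 CPM in unstimulated control KD cells, against 150 and 127 CPM in unstimulated GSTM1 KD cells, and at 353 and 261 against 166 and 145 CPM after stimulation. It fell by 1.14 (SE 0.25, edgeR adjusted p = 0.0442) and 1.01 (SE 0.18, edgeR adjusted p = 0.0245) on the log2 scale. In edgeR with the filter and without a block, Hmox1 was the only call at the basal level in the heme list of 15 tested genes. In the same kind of fit Hmox1 and the heme transporter gene Slc48a1 were lower after stimulation.

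In the list of mitochondrial iron and iron-sulphur clusters, with 21 genes tested, Isca2 was lower and Abcb8 higher in both states. Isca2, a cluster assembly factor, was at 32.4 and 31.1 CPM in unstimulated control KD cells, against 21.2 and 19.04 CPM in unstimulated GSTM1 KD cells and fell by 0.66 (SE 0.13, edgeR adjusted p = 0.0377) there and by 0.68 (SE 0.14, edgeR adjusted p = 0.0344) after stimulation. Abcb8, a transporter of the inner mitochondrial membrane, was at 31.0 and 37.6 CPM in unstimulated control KD cells, against 56.1 and 59.9 CPM in unstimulated GSTM1 KD cells and rose by 0.76 (SE 0.13, edgeR adjusted p = 0.0303) and 0.81 (SE 0.17, edgeR adjusted p = 0.0349). Without either GSTM1 KD library of a state, the adjusted p of these 3 genes ran from 0.105 to 0.327, with no change of direction. Leaving out unstimulated control KD replicate 1 gave Hmox1 a value of -0.75. All these fits hold 1 library in a group and take replicate spread from the other group alone, so their adjusted p-values say little. With every library kept, limma gave Hmox1 an adjusted p of 0.0574 at the basal level.

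In the remaining lists, Lrp1 (12 uptake genes tested) was higher and Smad5 (11 genes of export and its control) lower after stimulation, and Cisd1 of the mitochondrial list was higher there. Neither the 3 storage genes nor the 4 regulator genes tested held a call in either state in edgeR with the filter and without a block. Lrp1, Smad5, Cisd1 and Slc48a1 fall outside the rule for examples and were named after their values were seen. No gene of the 66 passed in either TNF-α response or in their difference in the edgeR fit of all 8 libraries with the filter and without a block, where 3, 3 and 0 had an unadjusted p under 0.05, against 12.5%, 10.9% and 1.92% of all genes. DESeq2 called 1, 0 and 0, and limma none. In edgeR 4, 4 and 1 of 72 passed with no filter on low counts, and 2, 2 and 0 of 66 with the replicate block. The widest response was that of Steap4, a metalloreductase gene also named after its values were seen. It was at 3.54 and 6.41 CPM in control KD at the basal level and at 15.2 and 99.7 CPM after stimulation, a log2 change of 3.54 (SE 0.88, edgeR adjusted p = 0.104), with the 2 stimulated libraries far apart. In GSTM1 KD it was at 6.83 and 12.6 CPM before and 39.4 and 75.6 CPM after stimulation, a log2 change of 2.57 (SE 0.84, edgeR adjusted p = 0.260).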

How the data were processed

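RNA of 8 libraries was sequenced with a strand-specific kit as 100-base paired ends, and the submitters' processing notes name STAR (version 2.5.4b), RSEM (version 1.3.0) and GRCm38. Expected counts as deposited by the authors are estimates per gene, not normalized, with reads that match several genes divided among them. The deposited TPM values are the authors' length-scaled levels, and the authors' effective lengths, in bases, can differ between libraries.

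Expected counts were rounded. edgeR (version 4.0.16, R version 4.3.3) gave TMM factors, filterByExpr by group, the quasi-likelihood F-test and Benjamini-Hochberg adjustment over all genes at 0.05. Each knockdown comparison used the 4 libraries of its state, and the TNF-α responses used all 8. Replicates differed by more than sampling noise. The labels number them without saying what a number marks. Deviations of same-numbered libraries from their group means correlated at 0.22 to 0.687 in all 6 pairs of groups (15332 genes), so values with the replicate number as a block are given where they change a call. With 2 libraries a group no exact test reaches 0.05, so p-values come from models across all genes. The floor was 3 counts, which covers counting error only. Copies were found by sequence match (at least 100 bases at 90% identity) in GENCODE M21 transcripts.

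The genes, lists and tests were chosen with earlier results of these data known. Always named were the 10 members, ferritin copies with 10 or more counts in a library, the 5 genes most like Ftl1, and list genes past the threshold in both states. Alternatives were DESeq2 (version 1.42.0), edgeR with DESeq2 size factors or unscaled totals, omission of the filter, a minimum of 10 counts per library, a replicate block, other sets of libraries, effective lengths as offsets, limma (version 3.58.1) on log2(TPM + 1), summed copies, and leaving out each library. Summing Trf or Ncoa4 with a copy, and all settings for the wider lists, were added after the data were seen. Fits were tested on simulated counts.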

Additional observations from a re-analysis of the deposited data

How the results depend on the processing

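The log2 fold change of Ftl1 in GSTM1 KD kept its direction, from -1.70 to -1.59 (basal) and -1.66 to -1.58 (TNF-α) over the other settings, and from -1.85 to -1.47 and -1.77 to -1.52 without each library in turn. Over the 9 members that passed the filter, 390 of 416 values under other settings and 231 of 288 without one library kept direction and side of the threshold. The knockdown and interaction values of Ftl1 in these counts have no test. They counted as kept if the direction held and the shift was smaller than the SD within groups. No reversed value had an adjusted p under 0.05. At the basal level the count of members past the threshold moved from 0 to 1 with no filter, 2 with a replicate block and 1 with all 8 libraries, and ran from 0 to 2 without each library. Of these, Slc39a14 was called in all 3 settings and Aco1 with the block. After TNF-α stimulation it moved from 1 to 0 with DESeq2 size factors and with limma, and ran from 0 to 2. For the response of control KD it moved from 0 to 1, always Slc11a2, with DESeq2, no filter, at least 10 counts and the replicate block, and ran from 0 to 1. For the response of GSTM1 KD and for the interaction it stayed at 0 throughout. Without a GSTM1 KD library the calls over all genes fell from 1524 to 1 or 3 and from 2360 to 0 or 94, while without control KD replicate 2 they rose to 5256 and 5028, so those fits say little about single genes. The wider iron list moved from 3 calls at the basal level to 23 with the replicate block and 16 with no filter. There it was 9 with all 8 libraries, 8 with DESeq2 and 5 with effective lengths as offsets. After stimulation it moved from 7 to 20 with the block, 20 with no filter and 11 with DESeq2. With all 8 libraries it was 10 there, and 5 with effective lengths as offsets. Leaving out a library moved the calls of this list both up and down in each state. In the responses of control KD and GSTM1 KD it moved from 0 to 4 and 4 with no filter and to 2 and 2 with the replicate block, and in the interaction from 0 to 1 with no filter. It moved to 1 with DESeq2 in the response of control KD and to 3 with only the 4 GSTM1 KD libraries in that of GSTM1 KD, and ran from 0 to 1 in each response without each library in turn. The replicate block raised the calls over all genes from 1524 to 4712 and from 2360 to 4302, and in the responses from 403 to 988 and from 406 to 808. For the members it changed no call beyond the 3 named here. The cause of these shifts was not tested.

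The values below changed sign, all without passing the threshold. Trf, whose values were -0.45 at the basal level, 0.16 and 0.59 in the responses and 0.43 in the interaction, gave 0.088 (length offset) and 0.077 (limma) at the basal level, -0.14, -0.11 and -0.052 (summed with Gm20425) in the response of control KD, -0.50 and -0.35 in that of GSTM1 KD, and -0.35 and -0.23 in the interaction. Fth1 gave -0.0014 with no filter after stimulation, and -0.011 (library size) and -0.0077 (limma) in the response of GSTM1 KD. Aco1 gave -0.013 and -0.0058 in the same 2 settings there, and Ncoa4 -0.0020 (at least 10 counts) and -0.010 (limma) in the interaction. Without each library in turn, the ranges at the basal level were -0.045 to 0.15 (Fth1), -0.049 to 0.13 (Tfrc) and -1.26 to 0.46 (Trf). After stimulation they were -0.16 to 0.19 (Fth1), -0.11 to 0.24 (Slc11a2) and -0.40 to 0.24 (Trf). In the response of control KD they were -0.29 to 0.073 (Ftl1), -0.11 to 0.23 (Fth1), -0.36 to 1.07 (Trf), -0.041 to 0.23 (Aco1) and -0.00040 to 0.22 (Ireb2). In that of GSTM1 KD they were -0.21 to 0.045 (Ftl1), -0.023 to 0.090 (Fth1), -0.074 to 0.037 (Ncoa4) and -0.088 to 0.14 (Aco1). In the interaction they were -0.16 to 0.20 (Ftl1), -0.19 to 0.14 (Fth1), -0.032 to 0.073 (Ncoa4), -0.49 to 1.24 (Trf), -0.16 to 0.082 (Slc39a14), -0.20 to 0.071 (Aco1) and -0.17 to 0.052 (Ireb2).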
